A study of Mus musculus with 24 samples.

Results

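The EphB receptors and their ephrin ligands were followed in mouse otocyst epithelium, the wall of the vesicle that forms the inner ear. The family comprised 10 of the 15736 genes in the count table: the receptors Ephb1, Ephb2, Ephb3, Ephb4, Ephb6, Epha4 and Epha7 and the ligands Efnb1, Efnb2 and Efnb3. The family was chosen by the counts of 1 member: Ephb1 was strongly higher in transgenic pools after 12 hours of doxycycline. The values of that exposure are therefore given as a description, without a test, and tests are given only for the 2 exposures of 24 hours.

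Eph receptors are receptor tyrosine kinases that bind ephrins on neighbouring cells. The receptor signals forward into its own cell, and a B-class ephrin, which spans the membrane, signals in reverse into the cell that carries it. This contact signalling is known for sorting cells at tissue boundaries and for guiding axons, and Ephb2 and Efnb2 are known for roles in the fluid balance of the mammalian inner ear.

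Control embryos (con) had the genotype Rosa26rtTA/+, in which the Rosa26 locus, active in most tissues, drives the doxycycline-dependent activator rtTA. Embryos of the genotype Rosa26rtTA/+;Tg(tetO-s(dn)Fgfr2b)/+ (R2b) also carried a tetO transgene whose product, secreted and dominant-negative, derives from FGFR2b, a receptor for FGF ligands. Its induction is thus not restricted to the otocyst. Every pregnant female, and so both genotypes, received doxycycline by injection at 1.5 mg/kg and then in chow at 200 mg/kg. Exposure began at embryonic stage E9.75 for 12 hours (E9.75+12h), at E9.25 for 24 hours (E9.25+24h) or at E10.25 for 24 hours (E10.25+24h). Dissected epithelia of each litter were pooled by genotype into 1 con and 1 R2b library, and 3, 4 and 4 litters had counts in these exposures, 22 libraries in all.

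Library totals were 18.7 to 28.2 M counts. Reads of Fgfr2 and of Ighg1, an immunoglobulin heavy-chain constant region that is part of the transgene, checked the labels. Ighg1 stood at 0.958 to 1.90 CPM (counts per M counts of a library, whose size was scaled by the trimmed mean of M-values) in con pools of E9.75+12h and at 1001 to 2979 CPM in its R2b pools. In E9.25+24h the reads stood at 0.0479 to 0.248 CPM in con and 1229 to 1892 CPM in R2b pools. At E10.25+24h the libraries of litter 1 went against their labels: Ighg1 was 702.5 CPM where the label was con and 56.3 CPM where it was R2b. Fgfr2 was 909.1 and 322.9 CPM in them, and Etv4 and Etv5, genes that FGF signalling is known to induce, were 7.71 and 17.8 CPM under the con label and 51.3 and 110.3 CPM under the R2b label. In litters 2 to 4 Fgfr2 was 214.1 to 413.3 CPM under the con label and 901.9 to 1271 CPM under the R2b label. For Etv4 these ranges were 52.1 to 57.2 CPM and 11.1 to 31.0 CPM. The library labelled con of litter 3 held 205.8 CPM of Ighg1, where those of litters 2 and 4 held 1.46 and 0.758 CPM. Results of that exposure are therefore given with and without litter 1. All 12 otic epithelium markers were in the table, as were 4 of 12 hindbrain neural tube markers. None of the markers in the table was at 0 throughout an exposure. No gene in the table had under 100 counts in total, so this says little about which cells were present. The mesenchyme markers summed to 1403 and 1288 CPM in the con and R2b pools of litter 4 at E9.25+24h and to 86.3 and 101.2 CPM in those of litter 3.

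Levels between genes were compared as CPM per kb of exon in the con pools of E9.25+24h (n = 4 litters). The length joined all annotated exons of a gene, whichever transcript was expressed, and the order depends on it. In CPM the means were 219.3 ± 24.3 for Epha7, 211.8 ± 40.4 for Efnb2 and 197.8 ± 12.5 for Ephb4 (SD). Ephb4, a receptor best known for its partner Efnb2 in vein formation, had the highest level at 42.6 ± 2.70 CPM per kb (SD). Efnb2 followed at 30.9 ± 5.90 CPM per kb, Epha7 at 22.2 ± 2.46 CPM per kb and Epha4 at 20.0 ± 3.55 CPM per kb. Ephb1 had the lowest level, 4.80 ± 1.004 CPM per kb, and its pools did not overlap with those of Ephb6, at 8.54 ± 0.811 CPM per kb. Ephb4 did not overlap with Efnb2, and Ephb6 did not overlap with Ephb2, which stood at 11.8 ± 0.706 CPM per kb. The other neighbours in the order (Efnb2 and Epha7, Epha7 and Epha4, Epha4 and Ephb3, Ephb3 and Efnb1, Efnb1 and Efnb3, Efnb3 and Ephb2) overlapped between litters. Ephb4, Efnb2 and Epha7 held the upper places in con pools of all 3 exposures. Ephb1 in con pools was 6.14 ± 0.705 CPM per kb at E9.75+12h (SD, n = 3) and 14.6 ± 6.11 CPM per kb at E10.25+24h (SD, n = 4). The latter includes the library labelled con of litter 1, at 22.3 CPM per kb, whose transgene reads went against its label. In CPM the con mean at E10.25+24h was 102.4 ± 42.8 with litter 1 (SD, n = 4) and 84.5 ± 28.8 without it (SD, n = 3). The library names in the labels carry a different prefix for each exposure, so a difference in level between exposures cannot be told apart from what that prefix stands for.

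**Figure D1:**
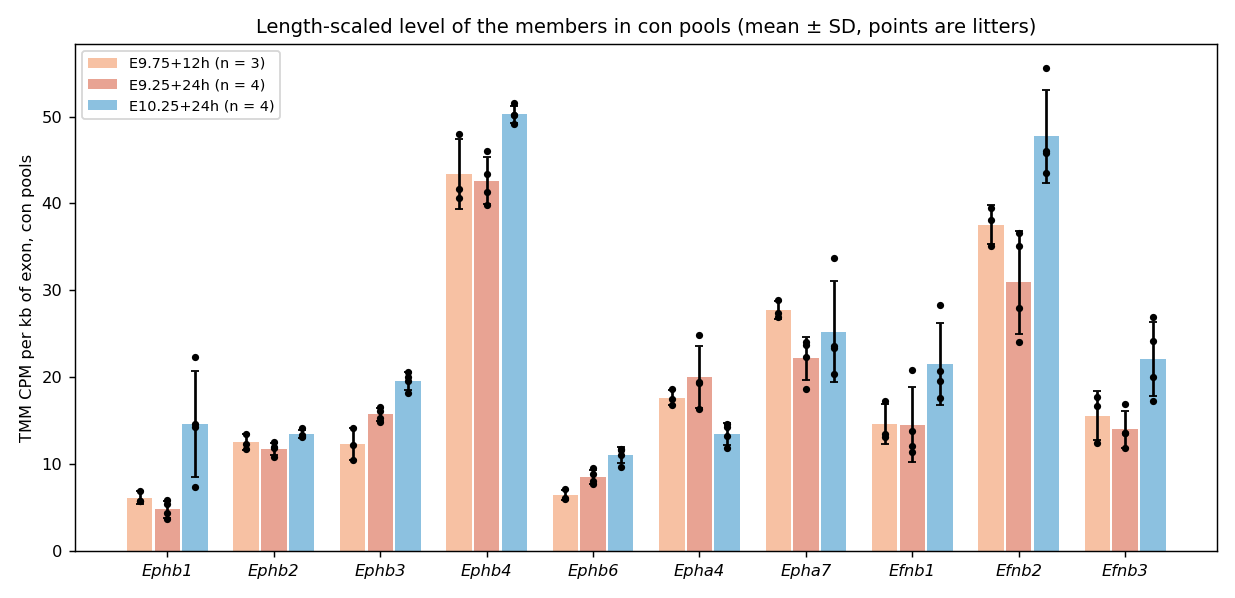
Level of each gene in con pools, in CPM per kb of exon, by exposure. Bars are means, error bars SDs and points litters (n = 3 or 4); Ephb4 and Efnb2 have the tallest bars, and Ephb1 has the shortest at E9.75+12h and E9.25+24h.

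At E9.75+12h, the exposure that chose the family, Ephb1 stood apart from the other members. Ephb1, a receptor known for routing retinal axons, was at 48.7, 40.3 and 39.9 CPM in the con pools of litters 1 to 3. In the R2b pools it was at 129.7, 124.5 and 147.7 CPM. Every R2b pool was above every con pool, the log2 fold change was 1.64 (SE 0.12), and the R2b mean was 3.11-fold the con mean. Efnb3, a ligand known as a midline barrier for axons of the spinal cord, was at 56.3, 39.4 and 53.1 CPM in con and 73.9, 82.7 and 81.5 CPM in R2b pools. Its groups did not overlap either, with a log2 fold change of 0.68 (SE 0.13). Ephb2 was at 155.0, 147.5 and 170.4 CPM in con and 210.5, 184.4 and 240.9 CPM in R2b pools, again without overlap, with a log2 fold change of 0.43 (SE 0.11).

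Of the remaining members, Epha7 and Efnb1 also had groups apart in that exposure, and Ephb6 had a mean change like that of Ephb2 with groups that overlapped. Epha7, a receptor for A-class ephrins, was at 265.8, 270.8 and 285.1 CPM in con and 322.2, 395.8 and 291.0 CPM in R2b pools, with a small margin in litter 3. Efnb1, an X-linked ligand whose loss causes craniofrontonasal syndrome, was at 45.1, 46.5 and 59.4 CPM in con and 61.5, 60.7 and 64.6 CPM in R2b pools. Log2 fold changes were 0.30 (SE 0.12) for Epha7 and 0.31 (SE 0.12) for Efnb1. Ephb6, a receptor that lacks kinase activity, ranged over 22.7 to 26.8 CPM in con and 26.03 to 38.9 CPM in R2b pools, with a log2 fold change of 0.43 (SE 0.15). The groups of Ephb3, Ephb4, Epha4 and Efnb2 overlapped too, with log2 fold changes of 0.07, 0.13, -0.01 and 0.18. In all, 9 of 10 members had a log2 fold change above 0 (51.4% of all genes tested) and 5 had every R2b pool above every con pool (19.8%). The median log2 fold change of the members was 0.30, and that of all genes 0.01. Nothing is read from these shares, since this contrast chose the family. The otic epithelium markers summed to 3764 to 4086 CPM in con and 4176 to 5050 CPM in R2b pools. Markers of otic neuroblasts, which leave this epithelium, summed to 291.5 to 318.3 CPM in con and 424.3 to 490.7 CPM in R2b pools, and those of neural crest and glia to 610.2 to 628.1 CPM and 741.7 to 797.6 CPM. Their part in the members' values was not tested. In pooled tissue, fewer cells of a type and less RNA per cell cannot be told apart.

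**Figure D2:**
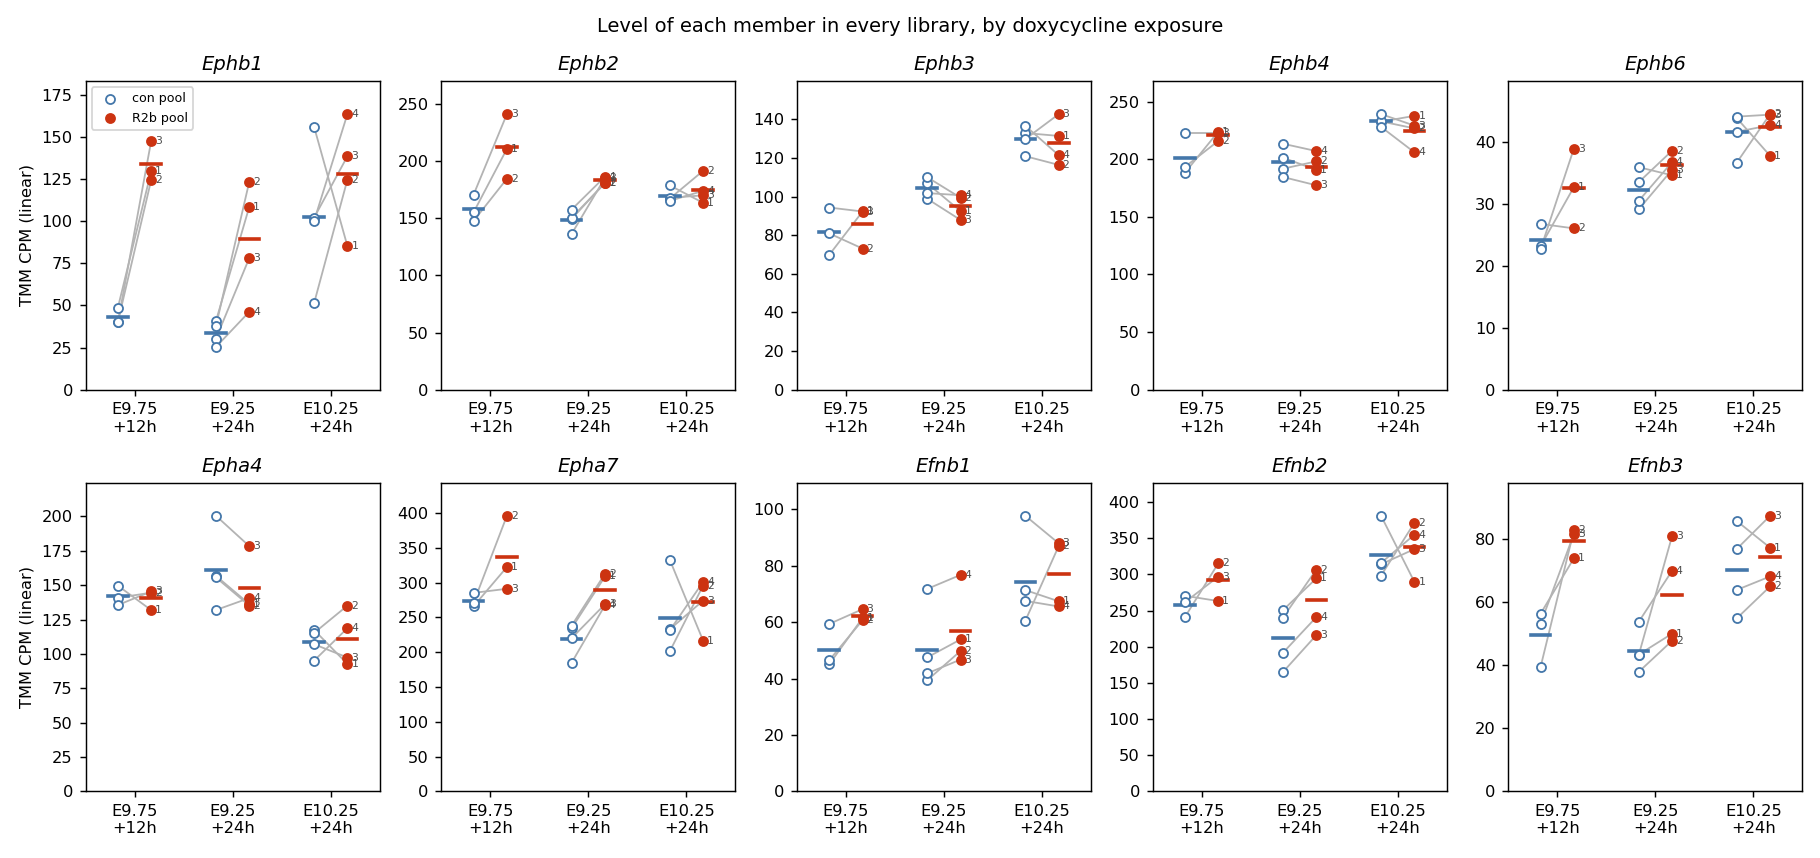
Level of each of the 10 members in every library, in CPM on a linear axis from 0, by exposure. Open points are con pools, filled points R2b pools with the litter number, grey lines join the pools of a litter and short bars are group means; the Ephb1 lines rise in every litter of the first 2 exposures and cross at E10.25+24h.

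The exposure E9.25+24h, which ended at the same stage as the first, asked whether the members also differed after a longer exposure. The family was chosen by Ephb1 at E9.75+12h, but its members were listed with earlier results of these data known. Ephb1, Ephb2 and Epha7 rose in R2b pools, and no member passed the test as lower without a litter term. Of the 10 members, 3 had an FDR (Benjamini-Hochberg adjusted p of edgeR) under 0.05, all higher in R2b, against 15.6% of the 14979 genes tested (9.09% higher). The same 3 had every R2b pool above every con pool, as did 12.2% of all genes. Tests were edgeR quasi-likelihood tests adjusted over all genes. Their p-values set the difference between genotypes against the spread between pools of a genotype. Without a litter term the fit leaves out that the pools of a litter are paired.

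Ephb1 was at 40.8, 37.9, 30.3 and 25.4 CPM in the con pools of litters 1 to 4 and at 108.6, 123.5, 78.2 and 46.3 CPM in the R2b pools. The R2b pool was higher in each litter, by 0.86 (litter 4) to 1.70 (litter 2) on the log2 scale. The lowest R2b value, in litter 4, was still above the highest con value. The R2b mean of 89.2 ± 34.3 CPM (SD, n = 4) was 2.65-fold the con mean of 33.6 ± 7.03 CPM, with an edgeR log2 fold change of 1.41 (SE 0.28, FDR 0.0147). Litter 4, in which both pools had the least Ephb1, also had the most mesenchyme and blood marker reads. The summed otic epithelium markers were at 2291 to 3657 CPM in con and 3193 to 5075 CPM in R2b pools, and those of neural crest and glia at 533.3 to 726.7 CPM and 636.3 to 799.3 CPM. The part of these cells in the level of Ephb1 was not tested. The summed otic neuroblast markers overlapped between con (212.1 to 414.6 CPM) and R2b pools (236.8 to 252.0 CPM).

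Ephb2 was at 149.3, 150.4, 136.2 and 157.5 CPM in con and 181.0, 180.6, 185.2 and 186.2 CPM in R2b pools. The R2b pools lay within a narrow band that started above the highest con pool. The edgeR log2 fold change was 0.30 (SE 0.05, FDR 0.00637), from 148.3 ± 8.90 to 183.2 ± 2.85 CPM (SD, n = 4). Epha7 was at 234.4, 238.1, 220.1 and 184.8 CPM in con and 308.7, 312.6, 268.8 and 267.4 CPM in R2b pools. Its groups were apart as well, and the R2b pool was higher by 0.29 to 0.53 on the log2 scale within litters. The edgeR log2 fold change of Epha7 was 0.40 (SE 0.09, FDR 0.0208), from 219.3 ± 24.3 to 289.4 ± 24.6 CPM (SD, n = 4). Leaving out single litters ended these calls in fits without a litter term. The FDR of Ephb1 became 0.0860, 0.0848 and 0.0605 without litters 1, 2 and 3 and 0.0514 without the R2b pool of litter 1. The FDR of Ephb2 became 0.0655 and 0.0514 without litters 1 and 2. The FDR of Epha7 became 0.104, 0.0835 and 0.0588 without litters 1, 2 and 3, and 0.0683 and 0.0667 without the R2b pools of litters 1 and 2. With no sample left out, Epha7 also lost its call when all 22 libraries entered 1 fit (edgeR FDR 0.0522).

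The ligands showed differences that ran within litters more than between groups. Efnb2, a ligand known for arterial identity, was at 250.5, 240.2, 165.0 and 191.6 CPM in con and 294.4, 306.6, 216.0 and 240.9 CPM in R2b pools. The groups overlapped because litters 3 and 4 were low in both pools, while each R2b pool was above the con pool of its litter. Efnb3 was at 43.3, 37.8, 43.1 and 53.7 CPM in con and 49.96, 47.7, 80.8 and 69.9 CPM in R2b pools, higher within each litter and most so in litter 3. Efnb1 was at 47.5, 39.4, 41.9 and 71.8 CPM in con and 53.9, 49.9, 46.8 and 76.8 CPM in R2b pools, and both pools of litter 4 were far above the rest. Without a litter term none of the ligands passed the test: the edgeR FDR was 0.184 for Efnb2 (log2 fold change 0.32, SE 0.15), 0.0990 for Efnb3 (0.48, SE 0.18) and 0.610 for Efnb1 (0.18, SE 0.21).

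With the litter as a block in the edgeR model, the 3 ligands passed the test as higher in R2b. Their log2 fold changes were then 0.33 for Efnb2 (SE 0.03, FDR 6.70e-05), 0.46 for Efnb3 (SE 0.09, FDR 0.00341) and 0.19 for Efnb1 (SE 0.05, FDR 0.0107). Ephb3, a receptor that acts beside Ephb2 in several tissues, passed as lower, at -0.13 (SE 0.04, FDR 0.0212). The paired fit called 7 of 10 members, 6 of them higher, against 40.6% of all genes (20.5% higher and 20.1% lower). Efnb1, Efnb2, Efnb3, Ephb1, Ephb2 and Epha7 kept their paired calls when any 1 of the 4 litters was left out. Ephb3 kept its call in 1 of those 4 fits.

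Ephb3 was at 106.8, 110.0, 98.8 and 101.8 CPM in con and 92.4, 99.4, 87.9 and 100.7 CPM in R2b pools, lower in each litter but by as little as 0.02 on the log2 scale in litter 4. Ephb4 ranged over 184.6 to 213.5 CPM in con and 177.4 to 207.1 CPM in R2b pools (log2 fold change -0.03, SE 0.06, edgeR FDR 0.758). Ephb6 ranged over 29.1 to 35.9 CPM and 34.6 to 38.5 CPM (0.17, SE 0.08, edgeR FDR 0.170). Epha4, a receptor that binds both classes of ephrin, ranged over 131.9 to 200.4 CPM and 135.1 to 178.3 CPM (-0.13, SE 0.13, edgeR FDR 0.557). None of these 4 receptors passed the unpaired test, and the groups of each overlapped. The median log2 fold change of the 10 members was 0.24, where that of all genes was -0.01, and it was 0.18 without Ephb1.

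The 3 receptors that passed the unpaired test as higher in R2b pools are shown with the 250 bases before their annotated start. The sequences are from RefSeq (GRCm38.p6), which held windows for 9 of the 10 members (not Efnb3), and are written 5′ to 3′ on the gene's strand. Capitals mark matches to CCGGAA, a form of the site of ETS factors. Called the ETS core here, it reads TTCCGG on the opposite strand, and other forms were not searched. The TCF/LEF core, here the string ATCAAAG, which reads CTTTGAT on the opposite strand, was searched as well, on both strands. The motifs do not overlap in the windows shown. Ephb1 spans 101922128 to 102354693 on the minus strand of chromosome 9, Ephb2 136647539 to 136835988 on the minus strand of chromosome 4, and Epha7 28813131 to 28967499 on the plus strand of chromosome 4 (GENCODE M21, GRCm38). The windows are chr9:102354694-102354943 (minus) for Ephb1, chr4:136836013-136836262 (minus) for Ephb2 and chr4:28812881-28813130 (plus) for Epha7.
Ephb1: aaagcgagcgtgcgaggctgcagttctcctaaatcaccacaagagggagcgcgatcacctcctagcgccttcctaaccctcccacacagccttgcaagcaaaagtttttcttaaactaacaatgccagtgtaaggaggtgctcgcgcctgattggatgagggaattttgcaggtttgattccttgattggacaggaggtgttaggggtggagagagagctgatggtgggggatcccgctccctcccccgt
Ephb2: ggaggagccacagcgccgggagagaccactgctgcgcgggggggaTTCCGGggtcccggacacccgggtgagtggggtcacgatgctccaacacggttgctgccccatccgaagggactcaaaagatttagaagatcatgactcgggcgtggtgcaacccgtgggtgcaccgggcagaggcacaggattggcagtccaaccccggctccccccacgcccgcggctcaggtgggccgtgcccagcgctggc
Epha7: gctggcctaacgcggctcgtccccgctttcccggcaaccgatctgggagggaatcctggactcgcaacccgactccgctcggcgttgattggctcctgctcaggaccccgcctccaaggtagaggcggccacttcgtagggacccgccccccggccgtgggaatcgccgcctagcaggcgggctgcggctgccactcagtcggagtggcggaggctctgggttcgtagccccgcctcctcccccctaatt
The Ephb2 window held 1 ETS core, 205 bases before the start, and the windows of Ephb1 and Epha7 held neither motif. Among the matched members Ephb6 also held 1 ETS core, 83 bases before its start, so that 2 of 9 had one, where 12.0% of 32851 promoter windows of this length did. The TCF/LEF core was in the window of none of the 9 and in 3.21% of all windows. GC content was 54.0% for Ephb1, 68.4% for Ephb2 and 69.2% for Epha7, with a median of 52.4% over all windows. A match only describes these letters, and a window without one says nothing of the factor.

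At E10.25+24h, 1 day later in development, no member passed the test with all 4 litters. Ephb1 was at 156.0, 51.3, 102.0 and 100.1 CPM under the con label (litters 1 to 4) and at 85.2, 124.6, 138.5 and 163.5 CPM under the R2b label. Litter 1, whose transgene reads went against the labels, had the highest level labelled con and the lowest labelled R2b. The edgeR log2 fold change was 0.32 (SE 0.31, FDR 0.9999). None of the 10 members was called, as were 0.0% of the 15203 genes tested by edgeR. At an unadjusted p under 0.05 edgeR gave 175 genes, and DESeq2 also called 0 genes. The groups of all 10 members overlapped, where 0.914% of all genes had groups apart in either direction.

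Epha7 and Efnb2 were ordered like Ephb1 across these libraries. Epha7 was at 332.8, 201.0, 232.8 and 231.1 CPM under the con label and 216.6, 295.5, 274.0 and 300.9 CPM under the R2b label. Efnb2 was at 380.9, 298.2, 313.9 and 315.8 CPM under the con label and 289.5, 371.3, 334.9 and 354.8 CPM under the R2b label. Within litters 2, 3 and 4 the library labelled R2b was higher, by 0.44 to 1.28 on the log2 scale for Ephb1, 0.24 to 0.56 for Epha7 and 0.09 to 0.32 for Efnb2. In litter 1 the log2 ratio was -0.87 for Ephb1, -0.62 for Epha7 and -0.40 for Efnb2.

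**Figure D3:**
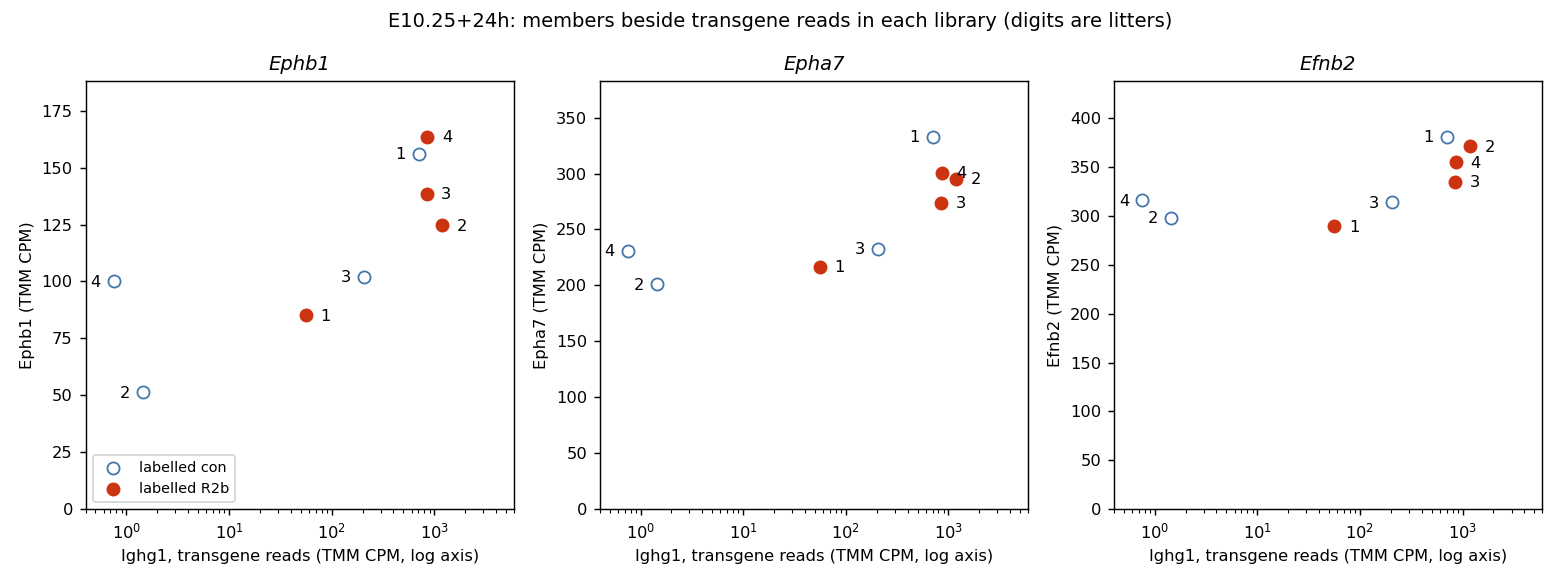
Levels of Ephb1, Epha7 and Efnb2 in CPM (linear axis from 0) against Ighg1 transgene reads in CPM (log axis) in the 8 libraries of E10.25+24h. Open points are labelled con, filled points labelled R2b and digits are litters; the library labelled con of litter 1 lies with the libraries labelled R2b of litters 2 to 4, and that labelled R2b of litter 1 lies at 56.3 CPM of Ighg1.

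Without litter 1, every library labelled R2b was above every one labelled con for Ephb1, Ephb2, Epha7 and Efnb2, 4 of 10 members, as for 11.8% of all genes. The edgeR log2 fold change was then 0.75 for Ephb1 (SE 0.25, FDR 0.226), 0.39 for Epha7 (SE 0.07, FDR 0.103), 0.20 for Efnb2 (SE 0.06, FDR 0.191) and 0.10 for Ephb2 (SE 0.06, FDR 0.433). No member passed this unpaired test, and 0.0% of all genes did. With the litter as a block, Ephb1 (0.80, SE 0.14, edgeR FDR 0.0384) and Epha7 (0.40, SE 0.07, edgeR FDR 0.0358) passed, 2 of 10 members against 4.04% of all genes (2.79% higher). Efnb2 did not, at an edgeR FDR of 0.109. Leaving out litter 3 as well, a choice made after the transgene reads were seen, gave paired calls for Ephb1 (log2 fold change 0.99, edgeR FDR 0.0217), Epha7 (0.48, edgeR FDR 0.0202) and Epha4 (0.28, edgeR FDR 0.0447), against 5.77% of all genes, from 2 litters.

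The groups of the other members overlapped at E10.25+24h with all litters, those of Ephb2 included. Ephb2 ranged over 165.1 to 178.6 CPM under the con label and 163.4 to 191.3 CPM under the R2b label, Ephb3 over 120.9 to 136.6 CPM and 116.4 to 142.7 CPM, and Ephb4 over 228.1 to 239.2 CPM and 206.0 to 237.7 CPM. Ephb6 ranged over 36.6 to 44.1 CPM and 37.7 to 44.5 CPM, and Epha4 over 95.1 to 117.4 CPM and 92.6 to 135.1 CPM. The ligands Efnb1 and Efnb3 ranged over 60.6 to 97.8 CPM and 65.6 to 88.0 CPM, and over 54.8 to 85.7 CPM and 64.9 to 87.3 CPM. Their edgeR log2 fold changes lay between -0.05 (Ephb4) and 0.08 (Efnb3) with all litters, and between -0.08 (Ephb4) and 0.18 (Efnb3) without litter 1.

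**Figure D4:**
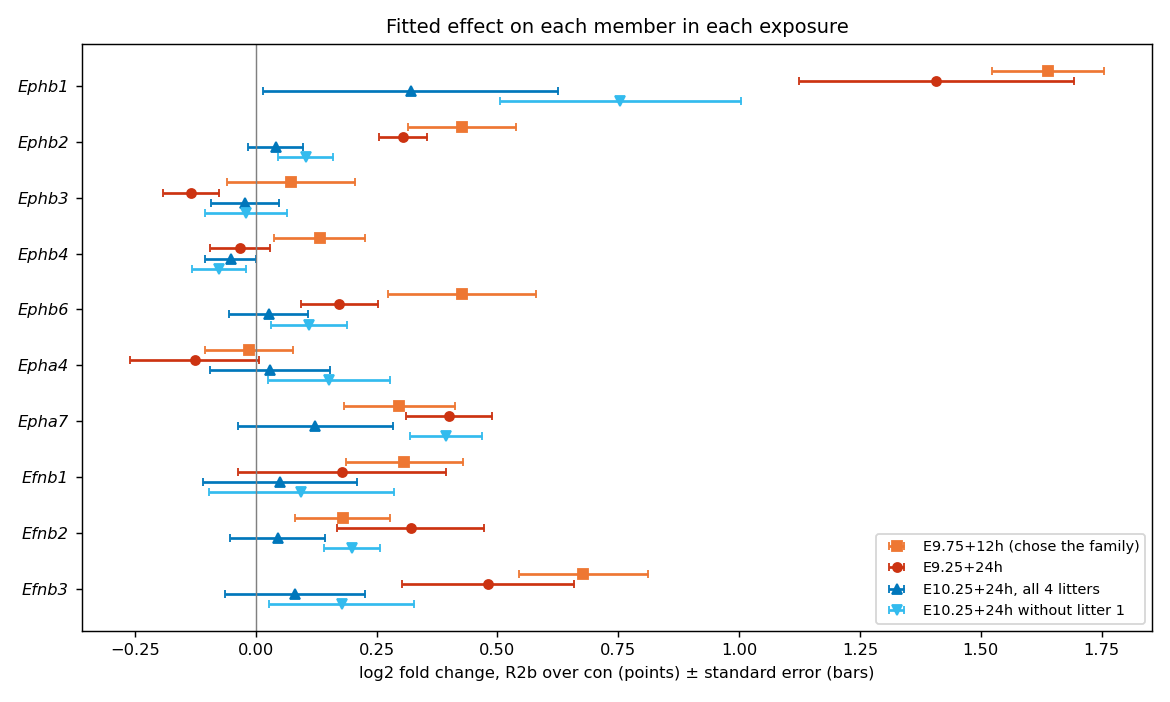
Log2 fold change of R2b over con for each member (points) with its standard error (bars) in each exposure, and at E10.25+24h also without litter 1. Ephb1 has the largest value in every set, from 0.32 at E10.25+24h with all litters to 1.64 at E9.75+12h, and the values of Ephb3, Ephb4 and Epha4 lie near 0.

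The effects at E10.25+24h and E9.25+24h were compared directly, as the difference of their log2 fold changes in 1 edgeR model of all libraries. The difference was -1.09 for Ephb1 (SE 0.40, FDR 0.419) and -0.27 for Ephb2 (SE 0.10, FDR 0.459), the only members with an unadjusted p under 0.05 there. Without litter 1 of E10.25+24h these differences were -0.67 for Ephb1 (SE 0.37, edgeR FDR 0.9999) and -0.21 for Ephb2 (SE 0.11, edgeR FDR 0.9999), so that of Ephb1 was smaller by over 1.5 times. None of the 10 members passed with or without litter 1. With all litters 0.0% of all genes passed; edgeR gave 1344 genes at an unadjusted p under 0.05, and DESeq2 called 73 genes. The difference from E9.75+12h was not tested, because that contrast chose the family.

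Other genes of the pathway were counted in 4 lists, at E9.25+24h with the edgeR test. Of the other Eph receptors, 5 of 7 were in the table and 4 were tested, and Epha3, a receptor for A-class ephrins, fell. It went from 9.11 ± 4.21 CPM in con to 2.52 ± 0.918 CPM in R2b pools (SD, n = 4; log2 fold change -1.86, SE 0.39, edgeR FDR 0.0165). At E9.75+12h its pools were also apart, at 7.51 to 9.72 CPM in con and 3.99 to 5.98 CPM in R2b. None of the 5 A-class ephrins passed. With the litter as a block Epha1 was added among the receptors, and Efna3 and Efna4 among the A-class ephrins, all higher. The medians of the receptors and A-class ephrins were -0.35 and -0.01, beside -0.01 for all genes.

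Of 20 genes for forward signalling below Eph receptors, 2 rose and 2 fell, near the 15.6% called among all genes. The guanine nucleotide exchange factors Tiam1 and Vav2 fell, Tiam1 from 131.2 ± 6.06 to 104.2 ± 0.789 CPM (SD, n = 4; log2 fold change -0.33, SE 0.04, edgeR FDR 0.00240) and Vav2 from 77.8 ± 3.84 to 62.1 ± 3.42 CPM (-0.32, SE 0.06, edgeR FDR 0.00907). The adaptor Nck2 rose from 59.8 ± 1.92 to 73.2 ± 3.04 CPM (0.29, SE 0.05, edgeR FDR 0.00700), as did Vav3, which is named after its value was seen. The list's median was 0.02, and the paired fit called 4 of its genes as higher and 5 as lower, near the 40.6% called among all genes. Of the 8 tested genes for reverse signalling and shedding, Grip1, a PDZ scaffold that binds B-class ephrins, rose from 51.0 ± 2.71 to 64.2 ± 4.195 CPM (0.33, SE 0.06, edgeR FDR 0.0119). Its list's median was 0.03, and Ncstn was added as higher by the paired fit. At E10.25+24h with all litters no gene of the 4 lists passed, paired or not.

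The genes whose pattern was most like that of Ephb1 were ranked by Pearson's r of log2 CPM over the 22 libraries, after the mean of each exposure was subtracted, among 12805 genes. They were Fam234a (r = 0.96), the transcription factor Ets2 (0.96), the lysosomal enzyme gene Ctsa (0.95), Os9, a lectin of the endoplasmic reticulum (0.95), and Ildr1, a tight junction protein needed for hearing (0.94). Among the members Epha7 was most like Ephb1 (r = 0.82, rank 613). It was followed by Ephb2 (0.76, rank 1154), Efnb2 (0.74, rank 1314), Ephb6 (0.73, rank 1358) and Efnb3 (0.57, rank 2535). Efnb1 (0.21), Ephb4 (0.00), Ephb3 (-0.06) and Epha4 (-0.08) were not ordered like it. The libraries come in pairs from the same litters and include those that chose the family, so these values describe a shared order only.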

How the data were processed

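Stranded poly(A)-selected RNA sequencing libraries were made from pooled otocyst epithelium, per the labels' protocols. The authors deposited raw counts of reads per Ensembl gene. Reads were aligned with Novoalign 2.08.03 to mm10, per the submitters' processing notes; the counting tool, annotation and any gene filter are not given in the sources used here. No gene had under 100 counts in total across the columns used. Columns were joined to samples by the library number in the titles: 2 columns match no sample and were not used, and 2 samples of E9.75+12h have no column. Symbols, positions and exon lengths came from GENCODE M21.

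Each exposure was fitted alone in edgeR 4.0.16 (R 4.3.3; filterByExpr, TMM, glmQLFit, glmQLFTest) on all genes, with a threshold of 0.05 on the FDR, the adjusted p; all 10 members passed the filter in each exposure. SEs come from the F statistic of that test. CPM values were computed from the counts. The counts of reads carry no molecular identifiers, and 30 pairs of libraries within groups differed by far more than counting noise (chi-square divided by its degrees of freedom 5.22 to 41.4), so none was a duplicate. The labels state that each female gave both pools, which gives the pairing. As a check, deviations from the group means were correlated across genes between con and R2b pools. Pools of the same litter gave 0.42 to 0.77 at E9.25+24h, -0.11 to 0.39 at E10.25+24h and -0.26 to -0.12 at E9.75+12h. Pools of different litters gave -0.56 to 0.15, -0.35 to 0.29 and -0.09 to 0.30. Same-litter pools were thus less alike than others at E9.75+12h, and the ranges overlapped at E10.25+24h.

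All 10 members were named; of each pathway list, at most 3 genes with the smallest FDR under 0.05 at E9.25+24h; and the 5 genes most like Ephb1 by r (prior count 2). Members and lists were chosen with earlier results of these data known. The alternatives were other size factors, no filter, a CPM filter at a mean of 1, the litter block, robust dispersion, DESeq2 1.42.0, all libraries in one fit, each litter or library left out, and E10.25+24h without litters 1 and 3. The fits were also run on simulated data that held no litter differences, so that run says nothing of how litters affect the calls.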

Additional observations from a re-analysis of the deposited data

Results flagged for a closer look

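At E9.25+24h the R2b pool of litter 3 held 178.3 CPM of Epha4, far from the R2b pools of the other litters at 135.1 to 140.6 CPM. The con pool of the same litter was the highest con pool as well, at 200.4 CPM. Of 40 groups of 4 libraries checked for such a distant value, 1 had one, and chance gives about 1 in 20.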

How the results depend on the processing

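At E9.25+24h the count of members called was 3, and it became 7 with the litter as a block. It ranged from 0 to 3 when 1 litter or 1 library was left out (0 without litter 1 or 2, 1 without litter 3 or without the R2b pool of litter 1), where fewer samples entered the fit, and from 6 to 8 with the block and 1 litter left out. DESeq2 called 4 members and 1 fit of all libraries called 2. At E10.25+24h the count was 0, but 2 with the block without litter 1 and 3 with the block without litters 1 and 3. The difference between these exposures called 0 members in every setting run, with a lowest FDR of 0.112. Of 230 alternative values of single members at E9.25+24h, 195 kept their direction and side of the threshold, 20 passed it, 12 lost it and 3 changed the sign of a value that was not called; at E10.25+24h these were 214, 5, 0 and 31 of 250. The log2 fold change of Ephb1 at E9.75+12h ranged from 1.51 to 1.76 over 19 alternatives. No called value changed direction in these alternatives. Where calls changed without fewer samples, the cause was not tested. At 18.7 to 28.2 M counts per library, libraries within groups differed by more than counting noise (chi-square divided by its degrees of freedom 5.22 to 41.4). What limited the calls was not tested.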
